A study of Mus musculus with 15 samples.

Results

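Male germ cells transcribe many mRNAs long before the proteins are made, and 10 genes whose products store such mRNAs or control their translation are described here by germ cell stage and by treatment. The 10 were chosen by name from the 32285 genes counted in every library, and all 10 were present. They are the poly(A)-binding protein genes Pabpc1, Pabpc2 and Pabpc6, the Y-box protein genes Ybx2 and Ybx3, the RNA helicase gene Ddx25, the DAZ family genes Boll and Dazl, and the genes Eif4e and Eif4g3 of the cap-binding complex.

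The study used male DBA/2J mice given JQ1, an inhibitor of BET bromodomain proteins that include the testis-specific BRDT, and testis cells were profiled by droplet 3′ single-cell RNA-seq with 1 testis of 1 mouse per library. In the treated group (T) JQ1 was injected into the peritoneum at 50 mg/kg daily for 3 wk and the mice were 10 wk old, while the recovery group (R) had the same 3 wk of JQ1 followed by 6 wk without drug and was 16 wk old. Vehicle controls received DMSO in a cyclodextrin solution without JQ1, injected daily for 3 wk as in the JQ1 groups. VC-T was taken after the 3 wk at 10 wk old, and VC-R after a further 6 wk without injections at 16 wk old. Untreated controls (UC) were 15 wk old. Each of the 5 groups had 3 libraries, 15 in all, so age and treatment cannot be told apart in T against UC, and VC-T gave the comparison at equal age.

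In eukaryotic cells eIF4E binds the mRNA cap, eIF4G bridges it to the ribosome, and poly(A)-binding proteins on the tail join eIF4G, so that cap and tail act together to start translation. Spermatids stop transcription as the nucleus condenses and depend on mRNAs stored earlier in ribonucleoprotein particles, in which Y-box proteins and RNA helicases such as DDX25 hold or release the message. DAZ family proteins bind germ cell mRNAs near their 3′ ends and act on their translation.

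The bases just upstream of 4 members are shown because their genes changed in T, Ybx2, Dazl and Eif4e in more than 1 stage and Ybx3 in spermatogonia. They are RefSeq promoter sequences of GRCm38.p6, 5′ to 3′ on the strand of the gene, taken from the 250 bases before the most upstream start and ending at the first base that the annotation places in an exon. Ybx2 is shown for chr11:69935649-69935795 (plus strand), Ybx3 for chr6:131388477-131388700 (minus strand), Dazl for chr17:50293637-50293870 (minus strand) and Eif4e for chr3:138525941-138526178 (plus strand). Capitals mark matches, on either strand, to the motifs TGACGTCA (a CRE), TGACGT (part of a CRE and so contained in it), CACGTG (an E-box), TAACGG (a MYB site) and CCAAT.
Ybx2: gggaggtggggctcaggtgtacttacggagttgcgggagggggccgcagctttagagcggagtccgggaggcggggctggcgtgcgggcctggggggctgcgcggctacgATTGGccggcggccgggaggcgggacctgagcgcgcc
Ybx3: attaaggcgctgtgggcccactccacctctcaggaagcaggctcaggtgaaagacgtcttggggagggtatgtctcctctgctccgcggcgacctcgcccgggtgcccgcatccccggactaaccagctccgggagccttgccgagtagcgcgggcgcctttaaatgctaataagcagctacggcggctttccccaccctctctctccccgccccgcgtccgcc
Dazl: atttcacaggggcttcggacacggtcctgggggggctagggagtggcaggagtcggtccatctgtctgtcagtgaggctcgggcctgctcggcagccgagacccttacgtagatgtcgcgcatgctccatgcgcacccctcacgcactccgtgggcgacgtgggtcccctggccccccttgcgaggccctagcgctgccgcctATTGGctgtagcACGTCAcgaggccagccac
Eif4e: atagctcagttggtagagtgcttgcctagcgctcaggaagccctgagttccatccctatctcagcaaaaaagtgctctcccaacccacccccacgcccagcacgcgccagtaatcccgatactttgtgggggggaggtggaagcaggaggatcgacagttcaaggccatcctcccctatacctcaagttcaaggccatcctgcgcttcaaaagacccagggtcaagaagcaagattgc
The stretch of Ybx2 held 1 CCAAT match, that of Dazl held 1 CCAAT and 1 TGACGT match, and those of Ybx3 and Eif4e held none of the 5 motifs. In the whole 250 bases Ybx2 held 2 CCAAT matches and the other 3 genes the same numbers as above. A second listed start of Eif4e, with the 250 bases before it at chr3:138527018-138527267, held 2 CACGTG and 1 CCAAT matches, and a second start of Ybx2 held none. Over the 250 bases before each of 32851 promoters in the same table, CCAAT was found in 33.8%, TGACGT in 6.47%, CACGTG in 6.02%, TAACGG in 2.18% and TGACGTCA in 1.55%. Promoters were listed for 7 of the 10 members. Ddx25 and Boll, also called in T, in spermatogonia and in round spermatids, had listed promoters that are not shown. The 250 bases of Ddx25 held 1 CCAAT match, and those before the listed starts of Boll held 1 CCAAT and 1 CACGTG match.

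All 10 members are protein-coding genes, placed here on the mouse build GRCm38 by the GENCODE annotation. Pabpc1 lies at chr15:36595661-36609668 on the minus strand, Pabpc2 at chr18:39773497-39776082 on the plus strand and Pabpc6 at chr17:9666495-9669717 on the minus strand. Ybx2 lies at chr11:69935796-69941605 on the plus strand, Ybx3 at chr6:131364855-131388476 on the minus strand, and Ddx25 at chr9:35536647-35558528 on the minus strand. Boll lies at chr1:55248658-55363469 on the minus strand and spans the pseudogene Gm8292 on the other strand, and Dazl lies at chr17:50279395-50293636 on the minus strand. Eif4e lies at chr3:138526179-138559696 on the plus strand, and Eif4g3 at chr4:137993022-138208508 on the plus strand overlaps the antisense gene 1700095J12Rik. The Pabpc genes are related in sequence, but no exact window of 91 bases was shared between the transcripts of any pair of Pabpc1, Pabpc2 and Pabpc6, so reads of that length without mismatches would not be split between them.

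After filtering, 72362 cells remained, between 2430 and 12744 per library, with 8407654 to 91083760 UMIs (unique molecules counted) per library and no more than 25 cell barcodes shared by any pair of libraries. Cells were clustered and placed in 7 germ cell stages by marker genes, and the counts of a gene were summed over the cells of a stage in each library. Levels are given as CPM, the gene's UMIs per 1000000 UMIs of that stage and library, so that a change in a gene's own RNA and a change in the rest of the stage's RNA cannot be told apart. The library labelled VC-T 1 stood apart from the other vehicle libraries. It held 1 elongating and 0 condensing spermatids among 5504 cells, whereas the other controls held 494 to 1923 elongating spermatids each, and in spermatogonia 7 of the 10 members lay above and 2 below the range of all 8 other control libraries. Its Pabpc6 level in spermatogonia was 164 CPM, above the T libraries at 74.5 to 150.4 CPM, and its Eif4e level in round spermatids was 83.8 CPM, within the T libraries at 72.0 to 91.8 CPM. In these values it resembled T and went against its vehicle label, and whether the label is right was not tested. As in the study, it was left out of the tests and of the group means. T had 9, 2 and 11 elongating and 0, 0 and 1 condensing spermatids in its 3 libraries, so comparisons with T cover the 5 stages from spermatogonia to round spermatids.

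Across the 8 other control libraries the members were not at one level through spermatogenesis but peaked at different stages. Stages were defined by clustering the same cells, so their order is described and not tested. The poly(A)-binding protein genes, whose products coat the mRNA tail, were highest in late meiotic prophase. Pabpc1 was at 2803 ± 78.5 CPM (SD, n = 8) in pachytene and at 2590 to 3075 CPM in diplotene and dividing spermatocytes, ranges that overlapped, and was higher in pachytene spermatocytes than in round spermatids (1721 ± 140 CPM) in 8 of 8 libraries. From round spermatids it went to 223 ± 33.3 CPM in elongating and 132 ± 36.7 CPM in condensing spermatids. Pabpc2, an intronless testis gene, went from 78.6 ± 29.4 CPM in spermatogonia to 871 ± 47.4 CPM in pachytene and 1037 ± 75.2 CPM in diplotene and dividing spermatocytes, and stood at 545 ± 48.5 CPM in round spermatids. Pabpc6 had the narrowest window of the 3, with 641 ± 69.4 CPM in pachytene and 624.9 ± 80.04 CPM in diplotene and dividing spermatocytes against 46.4 ± 19.7 CPM before and 47.0 ± 16.1 CPM after. The order of pachytene over diplotene held in 5 of 8 libraries for Pabpc6 and that of diplotene over pachytene in 5 of 8 for Pabpc1, whereas Pabpc2 was higher in diplotene in 8 of 8.

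**Figure D1:**
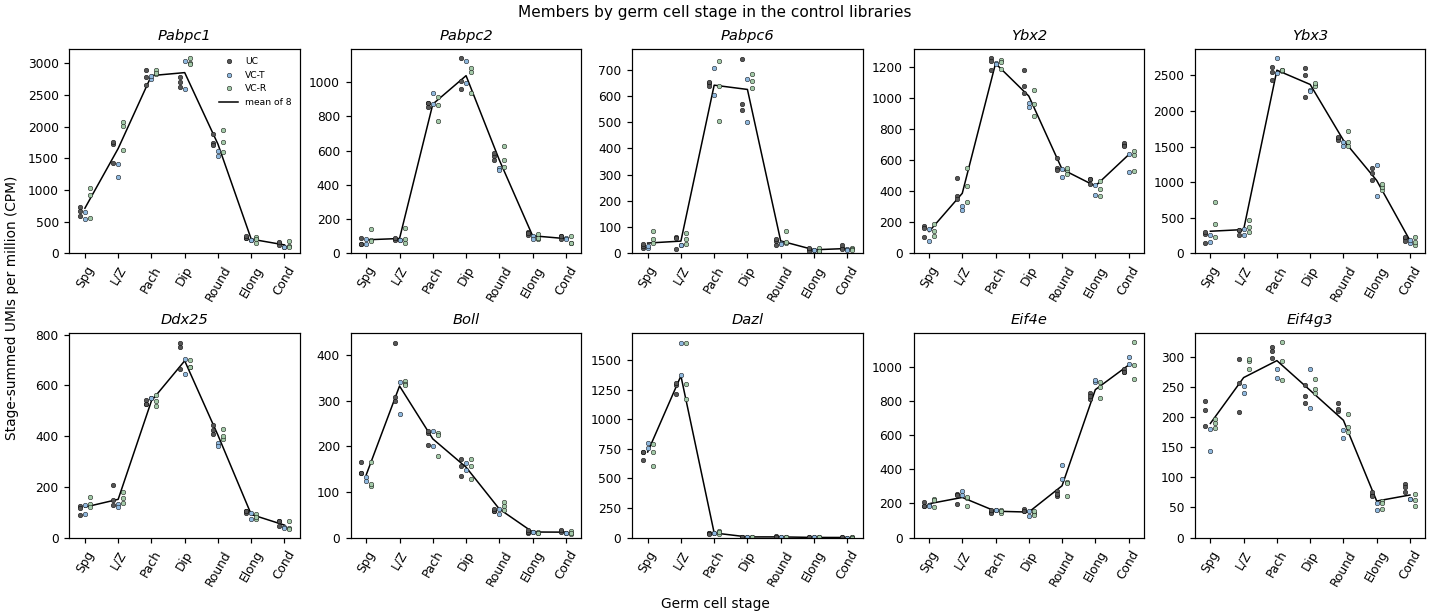
CPM of each member (vertical axes, separate scales) in the 7 germ cell stages (spermatogonia, Spg, to condensing spermatids, Cond) of the 8 control libraries, 1 point per library and colored by group, with a line through the means. Pabpc6 has its high values in pachytene and diplotene cells (641 and 624.9 CPM), Dazl is at 723 and 1366 CPM before pachytene, and Eif4e climbs after the round spermatids to 1010 CPM.

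The Y-box protein genes, whose products package mRNA, also had their highest level in pachytene spermatocytes but differed afterwards. Ybx2 was at 140 ± 38.3 CPM in spermatogonia, 386 ± 94.1 CPM in leptotene and zygotene and 1220.3 ± 26.6 CPM in pachytene spermatocytes, then at 540.4 ± 34.9, 432 ± 43.1 and 633 ± 72.4 CPM in round, elongating and condensing spermatids. Its level was higher in condensing than in round spermatids in 8 of 8 libraries. Ybx3 stood at 2573 ± 85.8 CPM in pachytene and 1588 ± 68.9 CPM in round spermatids and at 179 ± 40.8 CPM in condensing spermatids. Ddx25, the gonadotropin-regulated helicase of the chromatoid body, was highest in diplotene and dividing spermatocytes at 697 ± 43.7 CPM, above pachytene (539 ± 14.9 CPM) in 8 of 8 libraries, and lowest in condensing spermatids at 49.3 ± 14.4 CPM.

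The DAZ family genes peaked before pachytene. Dazl, the germ cell RNA-binding protein needed for germ cell development, was at 723 ± 64.8 CPM in spermatogonia, 1366 ± 182 CPM in leptotene and zygotene and 39.3 ± 10.3 CPM in pachytene spermatocytes, and at no more than 9.63 CPM in any control library from diplotene on. Boll, its relative in the same family, was at 333 ± 46.0 CPM in leptotene and zygotene, 217 ± 20.2 CPM in pachytene and 62.8 ± 7.95 CPM in round spermatids. The cap-binding protein gene Eif4e was the one member of the 10 with its highest level in condensing spermatids. It was lowest in diplotene and dividing spermatocytes (149 ± 14.4 CPM), at 304 ± 63.3 CPM in round spermatids, and at 866 ± 46.5 and 1010 ± 67.1 CPM in elongating and condensing spermatids, each later spermatid stage being above the one before in 8 of 8 libraries. Eif4g3, the eIF4G scaffold needed in male meiosis, varied least, from 294 ± 23.5 CPM in pachytene spermatocytes to 60.6 ± 10.5 CPM in elongating spermatids.

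CPM is a share of a stage's RNA, and cells of different stages held different numbers of UMIs. Counted as UMIs per cell, 5 of the 10 members kept their highest stage. For Pabpc1, Pabpc2, Ddx25 and Boll the highest stage became pachytene, and for Eif4e it became elongating spermatids.

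The genes most like each member over 74 stage sums of the control libraries, somatic cell types included, are given as a description, since all sums of a library share its depth. The highest Pearson r of log2(CPM + 1) was with Larp7 for Pabpc1 (0.955), Gk2 for Pabpc2 (0.965), AA467197 for Pabpc6 (0.906), 1700008K24Rik for Ybx2 (0.955) and Ropn1l for Ybx3 (0.964). It was with Cklf for Ddx25 (0.949), Zfp318 for Boll (0.948), Nup93 for Dazl (0.946), Ube2j1 for Eif4e (0.922) and Ate1 for Eif4g3 (0.901). Second in each list were Hspa2 for Pabpc1 (0.950), 1700123L14Rik for Pabpc2 (0.934), Atxn7l3b for Pabpc6 (0.886), Amz2 for Ybx2 (0.903) and Dkkl1 for Ybx3 (0.960), and Ahi1 for Ddx25 (0.940), Hdac1 for Boll (0.933), Hells for Dazl (0.929), Eif1 for Eif4e (0.921) and Arid2 for Eif4g3 (0.901). Hspa2 and Hells were among the marker genes used to name stages.

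During 3 wk of JQ1 the members moved in opposite directions in different stages. In T against UC, 17 of the 50 tests of a member in a stage passed an adjusted p under 0.05, 10 higher and 7 lower, by edgeR's quasi-likelihood test with Benjamini-Hochberg adjustment over all genes tested in the stage. Over all genes and the same 5 stages 17.7% of tests passed, 7.68% higher and 10% lower. At an unadjusted p under 0.05 the count was 21 member tests, and DESeq2 called 16. With a log2 fold change over 1 in size required as well, 7 member tests passed in T against UC, where 6.9% of all tests did.

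In spermatogonia 6 of the 10 members were called and all 6 were higher in T. Among all genes tested in spermatogonia 5.78% were called and 4.34% were called higher, and the median log2 fold change was 0.95 for the members and 0.02 for all genes. Pabpc6 was at 125, 150.4 and 74.5 CPM in T and at 20.6, 28.5 and 35.5 CPM in UC, 3.85-fold higher (log2 fold change 1.95 ± 0.33 SE, adjusted p = 0.000805). Pabpc2 was at 288, 167 and 172 CPM in T and at 51.6, 57.0 and 89.8 CPM in UC, 2.99-fold higher (1.58 ± 0.32, adjusted p = 0.00383). For both genes every T library lay above every UC library. Ybx3 was at 809, 564 and 570.2 CPM in T and at 268, 151 and 293 CPM in UC, a log2 fold change of 1.48 ± 0.28 (adjusted p = 0.00185). Ybx2 was at 389, 271 and 312 CPM in T and at 175, 106 and 161 CPM in UC, 2.30-fold higher in the fit (adjusted p = 0.00538, edgeR). The helicase gene Ddx25 was at 249, 255 and 198 CPM in T and at 124, 89.5 and 118 CPM in UC, a log2 fold change of 1.13 ± 0.22. The ranges of T and UC did not overlap for these genes either. Pabpc1 was at 1329, 1023 and 914 CPM in T and at 723, 590.02 and 671 CPM in UC, again without overlap (0.77 ± 0.18, adjusted p = 0.012).

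The other 4 members did not pass in spermatogonia. Dazl was at 491, 639 and 628 CPM in T and at 723, 720.2 and 657 CPM in UC (log2 fold change -0.24 ± 0.14), and Eif4e was at 170.1, 175 and 146 CPM in T and at 186, 183 and 210.4 CPM in UC (-0.23 ± 0.18). Boll (0.14 ± 0.19) and Eif4g3 (0.18 ± 0.17) overlapped between the groups.

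**Figure D2:**
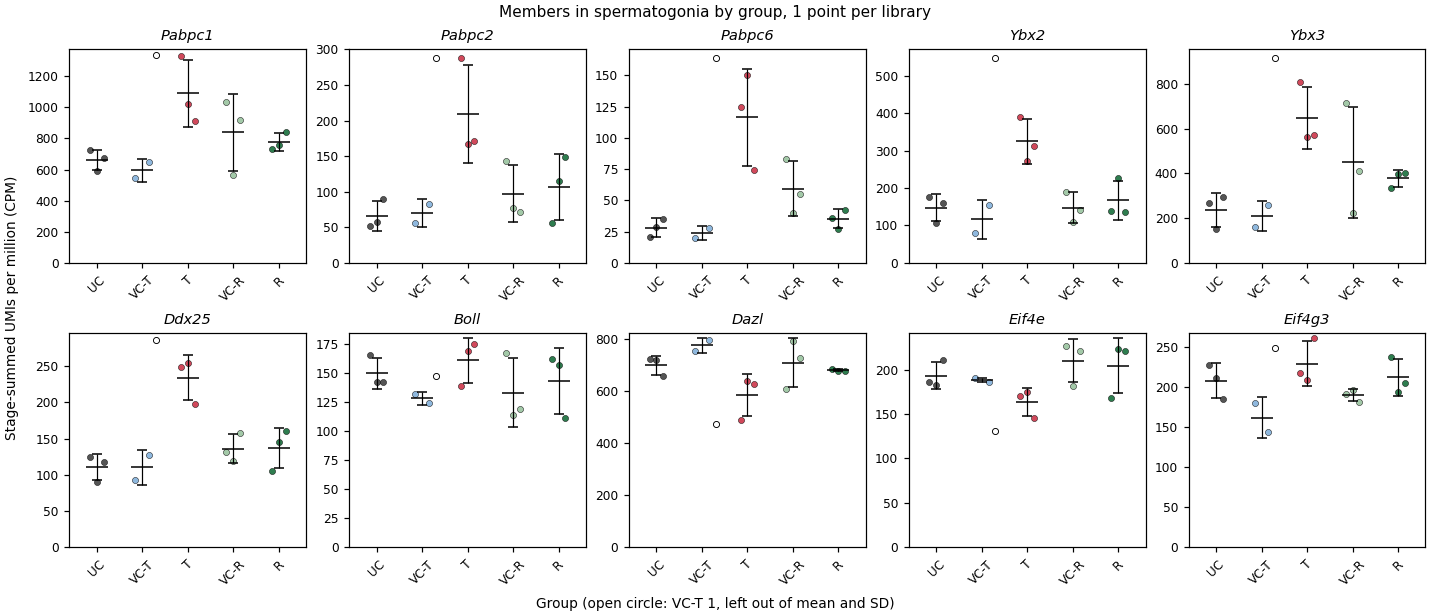
CPM of each member in spermatogonia (vertical axes, separate scales) in the 5 groups, 1 point per library with the mean and SD, and VC-T 1 as an open circle outside both. T lies above UC without overlap for the 3 Pabpc genes, Ybx2, Ybx3 and Ddx25, while R lies between 27.2 and 42.6 CPM for Pabpc6, near UC.

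These 6 genes had their highest control level in pachytene or in diplotene and dividing spermatocytes, and markers of later stages were also higher in T spermatogonia. The 8 pachytene marker genes summed to 2610.3 to 3643 CPM in T spermatogonia and to 920 to 1549 CPM in UC, with 8 of 8 detected in each T library, and the 10 round spermatid markers summed to 263 to 692 CPM in T and 142 to 227 CPM in UC. The 13 spermatogonial markers summed to 2116 to 2447 CPM in T and 2286 to 2570.3 CPM in UC. Cells were also ordered from spermatogonia to condensing spermatids and cut into 51 bins numbered from 0. In T 3.85% to 13.7% of spermatogonia fell in bin 2 or later, against 0% to 1.28% in UC and 0.81% to 1.14% in VC-T 2 and VC-T 3. The share was 0% to 7.69% in VC-R and 3.85% to 23.9% in R, so such late cells were not particular to T. Among cells of bin 0 Pabpc6 was at 31.4 to 78.8 CPM in T and 0 to 38.9 CPM in UC, and Ybx3 at 168 to 659.6 CPM in T and 168 to 221 CPM in UC, both overlapping. With the same number of cells per library in each bin, 39 cells per library, none of the 5 that could be tested was called: the log2 fold changes were 0.89 for Ybx3, 0.49 for Ybx2, 0.44 for Pabpc1, 0.37 for Pabpc2 and 0.33 for Ddx25, with adjusted p of 0.618 to 0.900 by edgeR's quasi-likelihood test, and Pabpc6 was too low to be tested.

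Sertoli cells, which are somatic and should lack germ cell RNA, gave the level of background RNA in the 4 libraries of T and UC with at least 10 of them. Pabpc2 was at 97.3 and 113 CPM in the Sertoli cells of T 1 and T 3, with 24 and 33 cells, and at 106 and 83.0 CPM in those of UC 2 and UC 3, with 13 and 53 cells. In spermatogonia of the same libraries it was at 288 and 172 CPM in T 1 and T 3. It was at 57.0 and 89.8 CPM in UC 2 and UC 3. By these values both T libraries lay above their background, UC 2 below it and UC 3 close to it. The Sertoli cells held 61681 and 52994 UMIs in T 1 and T 3 and 66331 and 216826 UMIs in UC 2 and UC 3. Sertoli values of the members therefore rest on few molecules, and whether they differ from those in spermatogonia was not tested. UC 1 and T 2 had 2 Sertoli cells each and gave no background. Ybx2 in Sertoli cells was at 259 and 321 CPM in T 1 and T 3 and at 136 and 143 CPM in UC 2 and UC 3. Spermatogonia of the same libraries were at 389, 312, 106 and 161 CPM. For Ybx2, T 1 and UC 3 lay above their background and T 3 and UC 2 below it, and the background itself was higher in both T libraries. Sertoli cell levels of Ybx3, Ddx25 and Pabpc1 are not given here. Pabpc6 was at 0 CPM in the Sertoli cells of T 1 and T 3 and at 75.4 and 41.5 CPM in those of UC 2 and UC 3. Ambient RNA was not subtracted, and the part of these values in the change in spermatogonia was not tested. Without UC 2, Ddx25 (0.93, adjusted p = 0.0572), Ybx2 (0.94, adjusted p = 0.0985), Pabpc1 (0.62, adjusted p = 0.146) and Pabpc2 (1.37, adjusted p = 0.0587) were no longer called, and without T 1 Pabpc1 was not (0.52, adjusted p = 0.150), all by edgeR. With VC-T 1 in the fit none of the 6 was called (adjusted p = 0.153 to 0.283, edgeR) although the log2 fold changes stayed between 0.74 and 1.93.

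In leptotene and zygotene spermatocytes 2 members were lower in T, where 2.86% of all genes were called and 2.28% were called lower. Eif4e was at 121, 59.0 and 67.6 CPM in T and at 198, 255 and 249.7 CPM in UC (log2 fold change -1.70 ± 0.47, adjusted p = 0.0341, edgeR). Dazl was at 999.9, 767 and 642 CPM in T and at 1209.8, 1286 and 1305 CPM in UC (-0.91 ± 0.25, adjusted p = 0.029, edgeR). Neither pair of ranges overlapped, but the T values rest on 23, 10 and 12 cells. The spermatogonial markers summed to 1588 to 2891 CPM in these T cells and to 717 to 1241 CPM in UC, and their part in the change was not tested. The median gene was at -0.24 with TMM scaling, so the main fit placed genes lower in T generally. With total UMIs in place of TMM scaling it moved by 0.27 to 0.03. Neither Eif4e (-1.44, adjusted p = 0.101, edgeR) nor Dazl (-0.63, adjusted p = 0.144, edgeR) was then called. With only the libraries of T and UC in the fit neither was called (-1.41 and -0.61). DESeq2 called Dazl (-0.77) but not Eif4e (-1.58). Of 9 other settings, some of which left the cells of this stage unaltered, 5 called Eif4e and 6 called Dazl. Eif4e also lost its call without T 1 (-2.19), T 2 (-1.50), T 3 (-1.57), UC 2 (-1.67) or UC 3 (-1.65), and Dazl without T 2 (-0.80), T 3 (-0.79), UC 2 (-0.90) or UC 3 (-0.87).

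Pachytene spermatocytes showed small decreases. Of all genes 13.9% were called and 8.03% were called lower, and of the members Pabpc2 (-0.34 ± 0.07, adjusted p = 0.00411), Pabpc6 (-0.37 ± 0.09, adjusted p = 0.0121) and Ybx2 (-0.20 ± 0.06, adjusted p = 0.033) were lower in T by edgeR. Pabpc2 was at 712, 815 and 725 CPM in T and at 852, 876 and 879.5 CPM in UC, and Pabpc6 at 535, 595 and 511 CPM in T and at 648, 639.6 and 654 CPM in UC, without overlap. The ranges of Ybx2 overlapped. These fold changes had the opposite sign to those of the same genes in spermatogonia. With total UMIs the median gene moved by 0.13, and Pabpc2 alone remained called (-0.21) while Pabpc6 (-0.24) and Ybx2 (-0.06) did not. With cells matched on the ordering none of the 3 was called (Pabpc2 -0.10, Pabpc6 -0.14, Ybx2 -0.13). Pabpc2 was called without any single library of T or UC. Pabpc6 lost its call without T 1 (-0.32), T 3 (-0.30) or UC 3 (-0.35), and Ybx2 without T 1 (-0.145), T 3 (-0.18), UC 1 (-0.18), UC 2 (-0.19) or UC 3 (-0.21).

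In diplotene and dividing spermatocytes 1 member was called, where 4.27% of all genes were called and 3.08% were called lower. Ybx2 was at 887, 950.1 and 926 CPM in T and at 1075, 1177 and 1029.96 CPM in UC, without overlap (-0.33 ± 0.08, adjusted p = 0.0127, edgeR). It lost its call without T 1 (-0.28) or UC 2 (-0.27), and when clusters of cells with few UMIs were joined to their stage (-0.25).

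In round spermatids Eif4e was lower in T and 4 members were higher. Here 45.5% of all genes were called, 19.5% higher and 26% lower, so 5 of 10 members called is near the background. Eif4e was at 91.8, 74.3 and 72.0 CPM in T and at 245.9, 269.9 and 255 CPM in UC, 3.69-fold lower in T (log2 fold change -1.88 ± 0.13, adjusted p = 6.28e-11, edgeR). The highest T library lay below the lowest UC library. Dazl, low at this stage in controls, was at 15.3, 14.1 and 14.7 CPM in T and at 5.17, 9.63 and 5.90 CPM in UC (0.89 ± 0.21, adjusted p = 0.00166). Boll was at 103, 107 and 96.0 CPM in T and at 58.1, 58.8 and 63.7 CPM in UC (0.55 ± 0.10, adjusted p = 7.22e-05). Both genes were higher in 3 of 3 T libraries than in any UC library. Pabpc6 was at 85.7, 71.8 and 84.7 CPM in T and at 47.8, 33.2 and 52.6 CPM in UC (0.64 ± 0.18), and Pabpc2 at 729.9, 789.9 and 799 CPM in T and at 566, 547 and 585 CPM in UC (0.24 ± 0.07), each above UC without overlap. The remaining 5, Pabpc1, Ybx2, Ybx3, Ddx25 and Eif4g3, had log2 fold changes between -0.11 and 0.08.

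**Figure D3:**
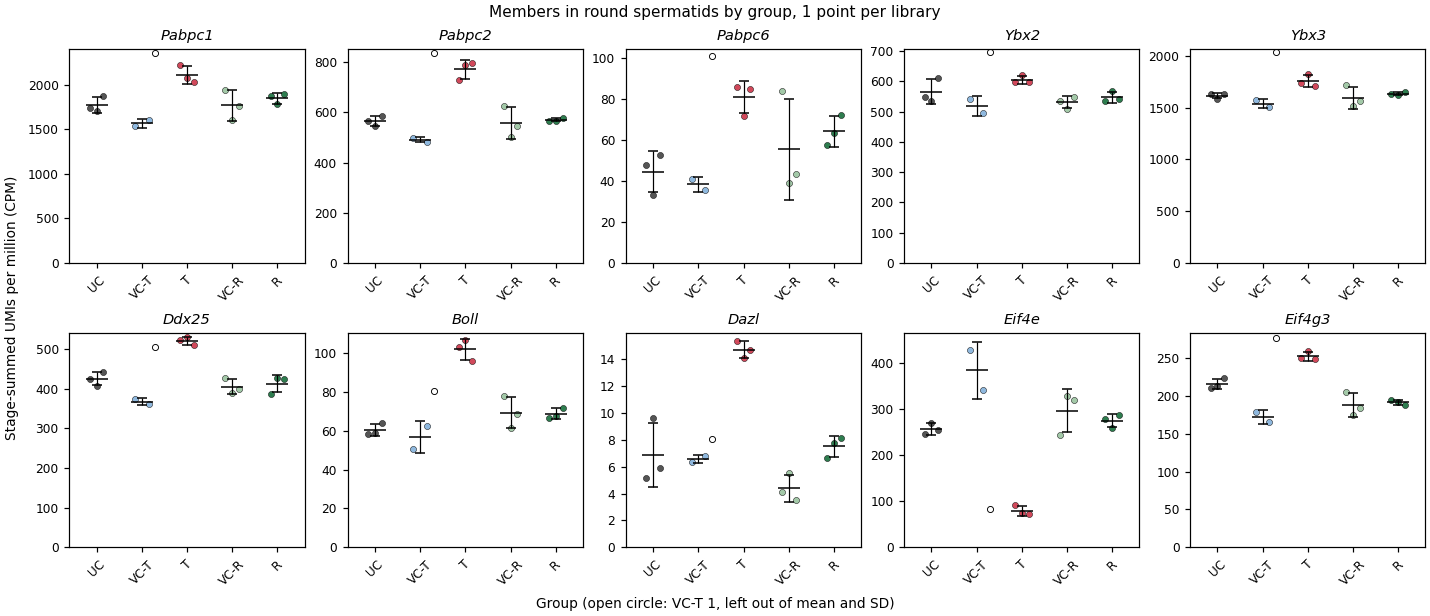
CPM of each member in round spermatids (vertical axes, separate scales) in the 5 groups, 1 point per library with the mean and SD, and VC-T 1 as an open circle outside both. The 3 T libraries lie at 72.0 to 91.8 CPM for Eif4e, under every UC, VC-T 2, VC-T 3, VC-R and R library, and VC-T 1 lies with them at 83.8 CPM.

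T cells lay earlier in the ordering of cells within this stage than UC cells. The elongating markers summed to 2037 to 2493 CPM in T round spermatids and to 4024 to 4482 CPM in UC, and the spermatogonial markers to 748 to 835 CPM in T and 627 to 689 CPM in UC. Only 3.52% to 10.2% of T round spermatids were in bin 25 or later of the ordering, against 34.6% to 40.8% of UC. That is where Eif4e climbs in UC, from a mean of 70.2 CPM in bin 24 to 246 CPM in bin 25, 621 CPM in bin 26 and 841 CPM in bin 27. In T the mean was 57.8 CPM in bin 24 and 172 CPM in bin 25 (126 to 195 CPM against 222 to 269 CPM in UC), and T 1 was the one T library with enough cells in bin 26, at 453 CPM against 587 to 666 CPM in UC.

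By cluster, the Eif4e mean was 45.4 ± 3.46 CPM in T and 43.8 ± 7.70 CPM in UC in the round spermatids led by Gm20268, with overlap. It was 80.2 ± 3.98 CPM in T and 90.8 ± 19.8 CPM in UC in the round spermatids led by Gm5458, and 71.6 ± 16.2 CPM in T and 124 ± 20.8 CPM in UC in those led by 1700121L03Rik, where the ranges of 54.3 to 86.4 CPM and 111 to 148 CPM did not overlap. In the latest cluster, led by Gm37294, UC was at 584 ± 40.2 CPM and the 42 cells of T 1 at 404 CPM. Without that cluster the log2 fold change of Eif4e was -0.53 (adjusted p = 0.000562, edgeR), and with cells matched on bins it was -0.34 (adjusted p = 0.280, edgeR). Dazl was called in both, at 0.85 and 1.16, and Boll without the latest cluster (0.33) but not after matching (0.08). Pabpc2 and Pabpc6 were called in neither (0.02 and 0.33 without the cluster, -0.10 and 0.15 after matching), and Pabpc6 was not called without UC 2 (0.47). With total UMIs the median gene moved by 0.21 and the 5 calls stood. The Dazl mean in T was 13.5, 15.5 and 16.3 CPM in the clusters led by Gm5458, Gm20268 and 1700121L03Rik. In UC it was 10.9, 4.56 and 5.67 CPM there. The ranges overlapped in the Gm5458 cluster (12.9 to 14.5 CPM in T and 6.95 to 16.6 CPM in UC). They also overlapped in the Gm20268 cluster (8.14 to 21.0 CPM in T and 0 to 8.78 CPM in UC). In the 1700121L03Rik cluster they did not (15.1 to 17.4 CPM in T and 5.16 to 6.60 CPM in UC). Spermatogonia, where Dazl was high, made up 6.88% to 8.40% of cells in T libraries and 1.26% to 3.71% in UC libraries. Ambient RNA was not subtracted, and its part in the Dazl change was not tested.

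**Figure D4:**
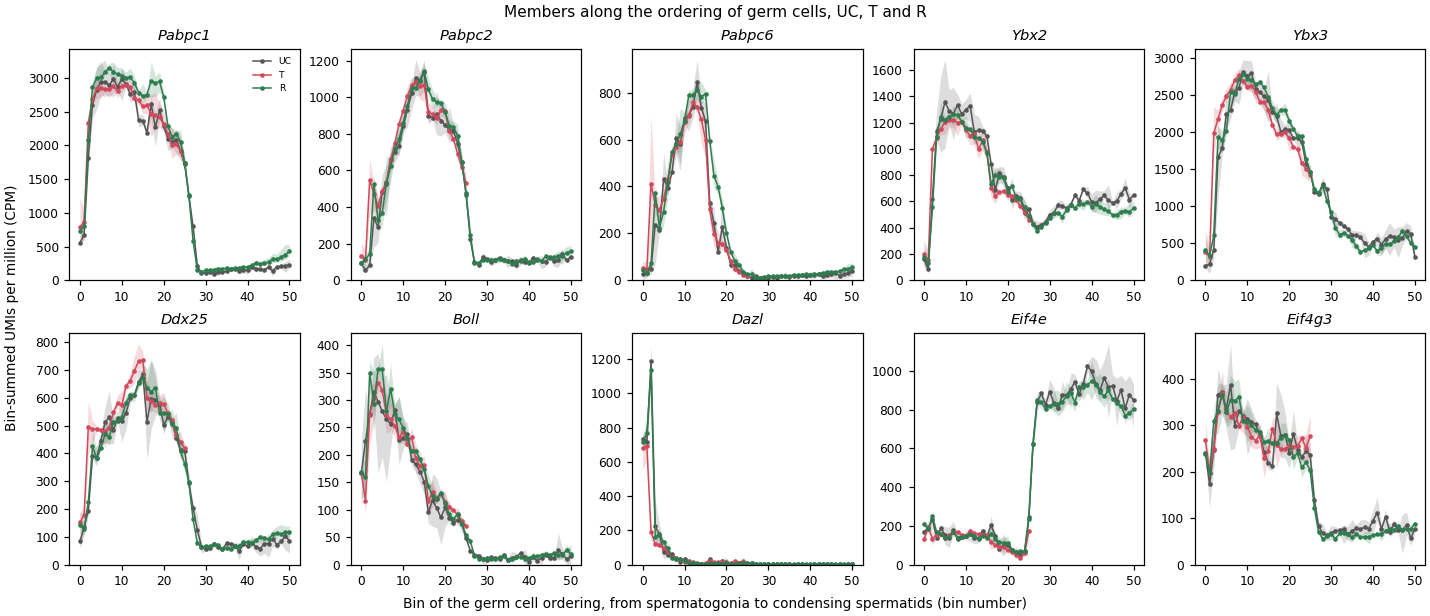
Mean CPM (vertical axes, separate scales) of each member in bins of cells ordered from spermatogonia to condensing spermatids (horizontal axes, bin number) for UC, T and R, with the lowest to highest library shaded; bins with at least 2 libraries of a group are drawn. T is drawn up to bin 25, where Eif4e is at 172 CPM in T and 246 CPM in UC, and UC and R go on to 841 and 849 CPM in bin 27.

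Against the vehicle group of equal age, VC-T, of which 2 libraries were used, 21 of 50 member tests passed, where 22.4% of all tests did, and 8 passed with a log2 fold change over 1 in size as well, where 9.85% did. T is the same set of libraries in both comparisons, so the lists are not independent. In spermatogonia the same 6 genes were higher, with log2 fold changes of 2.28 for Pabpc6, 1.61 for Ybx3, 1.60 for Pabpc2, 1.47 for Ybx2, 1.07 for Ddx25 and 0.84 for Pabpc1, and Dazl was lower (-0.47), where 11.5% of all genes were called. Pabpc6 was at 20.2 and 27.8 CPM and Ybx3 at 161 and 257 CPM in VC-T 2 and VC-T 3, below every T library. With cells matched on the ordering, 123 per library, Pabpc6 was still called in spermatogonia (1.76, adjusted p = 0.0374, edgeR), while Pabpc2 (1.16), Ddx25 (0.76), Ybx3 (0.69), Ybx2 (0.67), Pabpc1 (0.25) and Dazl (-0.26) were not, and with total UMIs Dazl was not called (-0.40).

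In round spermatids, where 53.9% of all genes were called, Eif4e was at 427 and 340.2 CPM in VC-T 2 and VC-T 3 and was lower in T by a log2 fold change of -2.56 ± 0.13 (adjusted p = 7.45e-13, edgeR). Dazl (0.87), Pabpc6 (0.77), Boll (0.56), Pabpc2 (0.35), Eif4g3 (0.25) and Ddx25 (0.21) were higher there. The values of VC-T 2 rest on 240 round spermatids, while 1138 with few UMIs were set apart from the stage. In VC-T 3 these numbers were 549 and 116. With 148 matched cells per library Eif4e was not called (-0.46, adjusted p = 0.172, edgeR), and neither were Boll (0.41), Eif4g3 (0.24), Ddx25 (-0.0074), Pabpc2 (-0.13) and Pabpc6 (-0.30), the last 3 with the sign turned. Dazl was called (1.59, adjusted p = 0.0245, edgeR).

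Leptotene and zygotene cells showed Eif4e (-1.84) and Dazl (-1.18) lower in T than in VC-T, where 2.12% of genes were called. The median gene was at -0.24 in that fit. With total UMIs, which moved the median gene by 0.29 to 0.05, neither was called (-1.54 and -0.87). Pachytene cells showed Pabpc2 (-0.46), Pabpc6 (-0.45), Ybx2 (-0.25), Eif4e (-0.24) and Ybx3 (-0.23) lower, where 20.9% were called. With matched cells none of the 5 was called (-0.054, -0.12, -0.21, -0.18 and -0.21 in the same order), and with total UMIs, which moved the median gene by 0.19, Pabpc2 alone was (-0.27). In diplotene and dividing spermatocytes 0 members were called by edgeR and 1 had an unadjusted p under 0.05, where 4.01% of genes were called. With VC-T 1 in the group, which was at 164 CPM of Pabpc6 in spermatogonia and 83.8 CPM of Eif4e in round spermatids, 3 member tests passed, those of Eif4e, Boll and Dazl in round spermatids. Without VC-T 2, which leaves VC-T 3 alone and assumes that it varies like the other groups, 12 passed, and in spermatogonia Pabpc6 (1.95) was then called while Ybx3 (1.21), Pabpc2 (1.22), Ybx2 (0.95), Ddx25 (0.75), Pabpc1 (0.62) and Dazl (-0.60) were not.

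After 6 wk without drug the number of member tests that passed depended on the fit. In R against UC, which shares the UC libraries with T against UC, 3 of 69 member tests passed in the 7 stages, where 1.98% of all tests did. The count was 10 with only the libraries of R and UC in the fit and 10 with low-UMI clusters joined to their stage. The round spermatid stage held 398, 556 and 485 cells in R and 392, 407 and 647 in UC. Low-UMI round spermatids, set apart from it, numbered 839, 867 and 2924 in R and 128, 72 and 136 in UC. The round spermatid values of R thus come from the smaller part of its round spermatids. The same held for VC-T 2 among the control libraries. With a log2 fold change over 1 in size as well, 0 of 69 passed by edgeR, where 0.537% of all tests did, and 13 had an unadjusted p under 0.05. Eif4e in round spermatids was at 279, 260 and 287 CPM in R and 245.9 to 269.9 CPM in UC (0.06 ± 0.10), and none of the members called in T spermatogonia was called in R, where 0% of all genes were called in spermatogonia. There Pabpc6 was at 36.3, 27.2 and 42.6 CPM and Pabpc2 at 56.1, 115 and 148 CPM in R. The difference between T and R was not tested.

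The 3 members called in R against UC were each called in 1 stage. Pabpc1 in condensing spermatids was at 229, 209 and 305 CPM in R and at 159, 127 and 177 CPM in UC, without overlap (0.57 ± 0.14, adjusted p = 0.0108, edgeR), where 4.49% of genes were called. Ybx2 in diplotene and dividing spermatocytes was at 871, 841 and 877 CPM in R and 1075, 1177 and 1029.96 CPM in UC (-0.39 ± 0.08, adjusted p = 0.00512, edgeR), where 3.47% of genes were called. It was lower than UC in both T and R at this stage, and both comparisons use the same UC libraries. Over all 8 control libraries Ybx2 ranged from 885 to 1177 CPM there, with T inside this range and R below it. It was not called at this stage in T against VC-T or in R against VC-R. Ybx3 in leptotene and zygotene spermatocytes was at 624, 479.9 and 477 CPM in R and at 323, 255 and 329.6 CPM in UC (0.79 ± 0.20, adjusted p = 0.0466, edgeR), where 0.469% were called. Ybx3 lost its call without any 1 of the 6 libraries (log2 fold changes 0.68 to 0.89), Pabpc1 without R 3 (0.39), UC 1 (0.57) or UC 2 (0.47), and Ybx2 without UC 2 (-0.33). With matched cells Pabpc1 (0.48) was called while Ybx2 (-0.24) and Ybx3 (0.78) were not.

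Against the vehicle group of equal age, VC-R, 4 of 69 member tests passed, all in condensing spermatids, where 5.66% of genes were called and 0.728% over all stages. With the fold rule added 0 passed by edgeR, where 0.0829% of all tests did. Pabpc1 was again higher (0.71 ± 0.14, adjusted p = 0.00943, edgeR), with VC-R at 186, 112 and 95.5 CPM, below every R library. Ddx25 was at 77.3, 72.9 and 88.8 CPM in R and at 66.1, 37.0 and 33.3 CPM in VC-R (0.59 ± 0.15, adjusted p = 0.0175), and Pabpc6 at 27.8, 25.5 and 34.6 CPM in R and at 21.5, 15.3 and 13.5 CPM in VC-R (0.59 ± 0.18, adjusted p = 0.048). Eif4e was at 903, 899.9 and 945 CPM in R and 927, 1145 and 1013 CPM in VC-R, with overlap (-0.39 ± 0.12, adjusted p = 0.0491). The 8 pachytene markers summed to 1850 to 2110.3 CPM in condensing spermatids of R, 1354 to 1674 CPM in VC-R and 1441 to 1811 CPM in UC, and the 10 round spermatid markers to 395 to 468, 155 to 358 and 241 to 306 CPM. Their part in the changes was not tested.

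Without R 3 or without VC-R 2 none of the 4 calls in condensing spermatids stood. The log2 fold changes were then 0.56 and 0.64 for Pabpc1, 0.53 and 0.46 for Ddx25, 0.46 and 0.55 for Pabpc6 and -0.39 and -0.24 for Eif4e. Without R 1, Pabpc1 alone was called, and without VC-R 3 the same held. Without VC-R 1, 10 of 69 tests passed, and with low-UMI clusters joined to their stage 10 did. With cells matched on the ordering Pabpc1 (0.63) was called while Ddx25 (0.48), Pabpc6 (0.21) and Eif4e (-0.32) were not, and with total UMIs, which moved the median gene by 0.21, Eif4e was not called (-0.17).

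**Figure D5:**
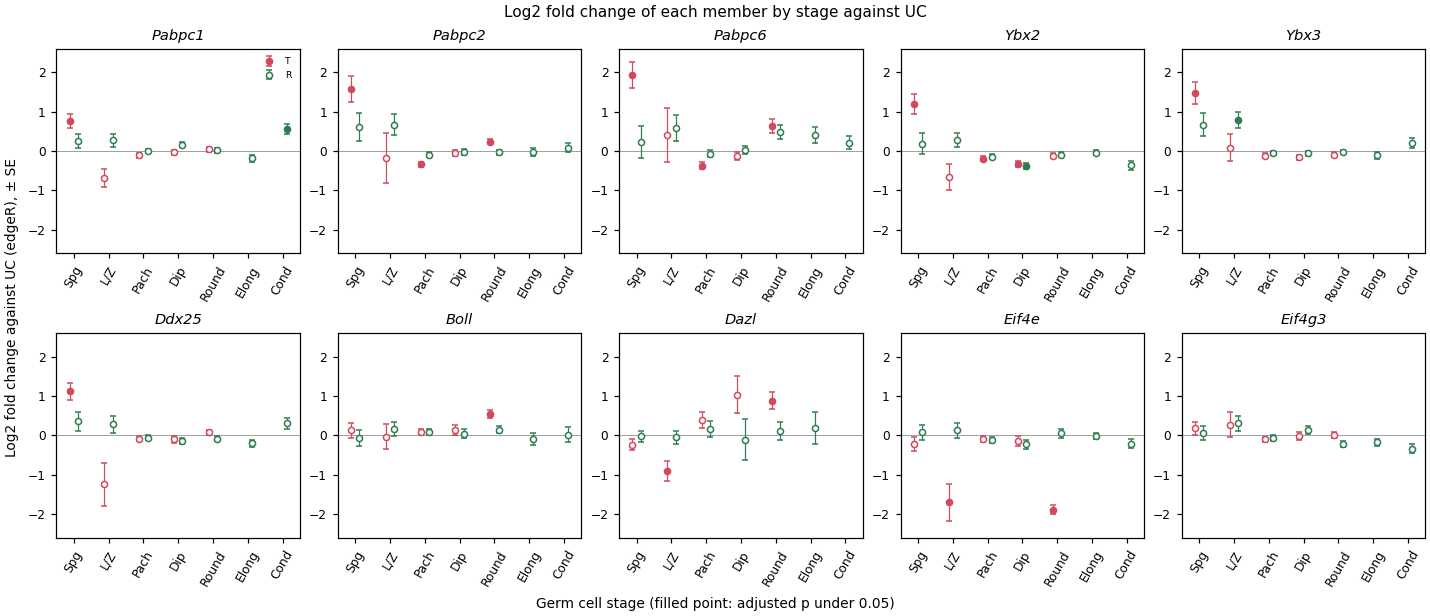
Log2 fold change from edgeR (vertical axes, 1 scale, bars are SE) of each member against UC in 7 germ cell stages for T and R; filled points have an adjusted p under 0.05, and T has no points in elongating and condensing spermatids. Filled T points lie above 0 in spermatogonia for 6 members and below 0 for Eif4e in leptotene and zygotene and in round spermatids, and R has 3 filled points.

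Few member tests passed between control groups. In VC-R against UC 0 of 69 member tests passed by edgeR, 9 had an unadjusted p under 0.05 and 0 passed by DESeq2, where 0.0801% of all tests passed by edgeR and 0.018% with the fold rule added. In VC-T against UC 1 of 69 passed, where 0.807% of all tests did, and 0 with the fold rule added, where 0.199% did. It was Eif4e in round spermatids, where 1.84% of genes were called, 1.59-fold higher in VC-T (0.67 ± 0.13, adjusted p = 0.00631, edgeR). It was not called without VC-T 2 (0.47) or without the latest round spermatid cluster (0.22).

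A wider list of 86 other genes of mRNA storage and translation control was counted by role for context. In T against UC 2 of 73 tested were called in spermatogonia, both higher, where 5.78% of all genes were called and 4.34% were called higher. In leptotene and zygotene spermatocytes 3 of 65 were called, all lower, where 2.86% of all genes were called and 2.28% were called lower. In pachytene spermatocytes 3 of 70 or 4.29% were called, where 13.9% of all genes were, and in diplotene and dividing spermatocytes 1 of 63, where 4.27% were. In round spermatids 42 of 73 or 57.5% were called, where 45.5% of all genes were. Of these 24 were higher, where 19.5% of all genes were called higher, and 18 were lower, where 26% were called lower. By role, 10 of 22 translational repressors and activators were higher and 4 lower, 4 of 7 partners and relatives of the DAZ family were higher and none lower, and 4 of 6 poly(A)-binding proteins and partners were lower and none higher. Of 9 cap-binding proteins and their inhibitors 2 were higher and 3 lower, of 7 eIF4G scaffolds and eIF4A helicases 3 were higher and 3 lower, and of 15 poly(A) polymerases and deadenylases 3 were higher and 3 lower. Among RNA helicases of mRNP granules 2 of 4 were higher, and among Y-box and cold-shock proteins 1 of 3 was lower.

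For T against UC the 3 genes of the wider list ranked first by adjusted p, among those higher and among those lower, all came from round spermatids. The RNA-binding regulator Qk was at 45.2, 38.7 and 50.3 CPM in T and 16.8 to 20.3 CPM in UC (0.99 ± 0.13, adjusted p = 2.3e-06, edgeR), the deadenylase subunit Cnot7 at 34.6, 36.6 and 32.1 CPM against 15.5 to 17.0 CPM (0.88 ± 0.16), and the eIF4A inhibitor Pdcd4 at 363, 322 and 339 CPM against 204 to 234 CPM (0.41 ± 0.08). All 3 lay above UC without overlap. The eIF4A cofactor Eif4h was at 56.2, 51.8 and 58.0 CPM in T and 118 to 129.8 CPM in UC (-1.40 ± 0.13), the poly(A)-specific ribonuclease Parn at 11.5, 8.90 and 8.13 CPM against 25.9 to 27.6 CPM (-1.63 ± 0.16), and Eif4e3, a relative of Eif4e, at 0.38, 0 and 0.387 CPM against 6.31 to 7.75 CPM. Like Eif4e, these 3 were lower in every T library than in any UC library, and Eif4e3 in T was close to undetected. T round spermatids lay earlier in the ordering than those of UC, and values with matched cells are not given for the wider list.

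In R against UC the wider list had 1 call of 63 in diplotene and dividing spermatocytes, where 3.47% of all genes were called, 1 of 66 in elongating spermatids, where 5.36% were, and 4 of 60 in condensing spermatids, where 4.49% were. It had none in the other 4 stages. Dazap1, a partner of DAZ proteins, was lower in diplotene and dividing spermatocytes, at 147, 140.2 and 138 CPM in R and 188 to 228 CPM in UC (-0.56 ± 0.12, adjusted p = 0.00801, edgeR). In condensing spermatids Pdcd4 (0.63 ± 0.17) and the deadenylase gene Cnot6 (1.10 ± 0.32) were higher, and Eif4b (-0.58 ± 0.15) and Eif4h (-0.43 ± 0.12), both cofactors of eIF4A, were lower in R. Ncbp1, which encodes a nuclear cap-binding protein, ranked next by adjusted p among genes with a positive fold change and did not pass (0.67 ± 0.21, adjusted p = 0.0508, edgeR).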

How the data were processed

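Testis cells of 15 mice were measured by droplet 3′ single-cell RNA-seq. The authors aligned reads to mm10 with Cell Ranger 3.0.0 per the submitters' processing notes (the matrix headers name another version) and deposited whole-number UMI counts per gene and cell, which are not normalized. The study also corrected ambient RNA and removed doublets, and ambient correction was not applied here.

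A cell was kept if it had 1000 or more UMIs, 500 or more genes and no more than 30% of its UMIs from mitochondrial genes, and the 5.4% with the highest doublet score in each library were removed. Scanpy 1.11.5 clustered them (2000 variable genes, 30 principal components, Leiden resolution 1.2 with leidenalg 0.10.2). Clusters were named from marker lists, those with few UMIs were set apart, and cells were ordered into 51 bins. Counts were summed per library and stage with at least 10 cells and tested over all genes of a stage in 14 libraries with edgeR 4.0.16 (quasi-likelihood test, TMM, R 4.3.3) and Benjamini-Hochberg adjustment, with calls at an adjusted p under 0.05. DESeq2 1.42.0, other filters, scalings, clusterings, matched cells, a replicate block and leaving out each library were alternatives. Total UMIs per library were 9673587 to 98724982, and depth limits low genes and small stages. Replicates were separate mice.

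The members, lists and tests were chosen with earlier results of these data known. All 10 members are named. Of the wider list, the 3 genes ranked first by adjusted p in each direction are named, and for likeness the 2 genes with the highest r among those with a mean of at least 20 CPM. On simulated counts for T against UC, 59% of genes changed 2-fold were recovered in spermatogonia (8437 genes), 95% in pachytene spermatocytes (12391) and 93% in round spermatids (13525). Of the calls 6.51%, 3.94% and 5.39% were false, in the same order. The counts were drawn with a common dispersion for all genes of a stage and no difference in the mix of cells. Only genes above a minimum expected count were changed, so these shares do not cover low genes.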

Additional observations from a re-analysis of the deposited data

Results flagged for a closer look

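Among the 8 control libraries, 8 of 70 member and stage levels had a library whose gap to the nearest other was large for the range. For independent and normally distributed values chance gives about 1 in 20, but the 70 levels come from the same 8 libraries. Some flagged values rest on few molecules, such as 10 UMIs for Dazl in UC 1 and 12 UMIs from 39 cells for Pabpc2 in spermatogonia of VC-R 1. In spermatogonia VC-R 1 was the highest for Pabpc2 at 143 CPM and for Ybx3 at 715 CPM, in leptotene and zygotene spermatocytes it was the highest for Pabpc2 at 148 CPM, and in round spermatids for Pabpc6 at 83.7 CPM. UC 1 was the highest for Boll in leptotene and zygotene spermatocytes at 428 CPM and for Dazl in elongating spermatids at 2.98 CPM. UC 3 was the highest for Ybx2 in round spermatids at 612 CPM and for Boll in elongating spermatids at 17.0 CPM.

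For 4 of the 10 members T differed from UC in opposite directions in a pair of stages, each called, and the difference between the stages was not tested. The log2 fold change in spermatogonia exceeded that in pachytene spermatocytes by 2.32 for Pabpc6 and by 1.92 for Pabpc2, and that in diplotene and dividing spermatocytes by 1.53 for Ybx2. For Dazl it was higher in round spermatids than in leptotene and zygotene spermatocytes by 1.79.

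VC-T 1, which was left out of the tests except where its inclusion is stated, lay above the highest of the 8 control libraries for 7 members in spermatogonia, 4 in leptotene and zygotene, 3 in pachytene, 1 in diplotene and dividing spermatocytes and 8 in round spermatids.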

How the results depend on the processing

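Of 6310 values of a member in a stage under an alternative, 6054 counted as unchanged, 190 lost their call, 57 gained one, 7 reversed and 2 without a test moved. A change of sign counted as a reversal only where the main or the alternative value was called. Sign changes between uncalled values are therefore among the 6054. So are levels that stayed within their SD, and alternatives that did not alter the cells of the stage. With cells matched on the ordering, Pabpc2 in round spermatids came to -0.10 in T against UC, and Pabpc2, Pabpc6 and Ddx25 to -0.13, -0.30 and -0.0074 in T against VC-T. Without the latest round spermatid cluster Pabpc2 came to -0.0042 in T against VC-T. With total UMIs in place of TMM Ybx3 came to 0.19 and Ybx2 to 0.23 there, where the median gene moved by 0.30. The cause of these changes was not tested.

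Of 17 calls in T against UC, the count was 7 with a log2 fold change over 1 required, 5 with VC-T 1 included, 3 with matched cells, and 8 (without UC 2) to 16 on leaving out 1 library. Of 3 in R against UC, it was 0 with the fold rule, 10 with only these groups' libraries in the fit, 1 with matched cells, 5 at Leiden resolution 0.8, 10 with low-UMI clusters joined to their stage, and 0 to 2 on leaving out 1 library. Of 21 in T against VC-T, it was 8, 3 and 2 with the fold rule, VC-T 1 and matched cells, and 12 (without VC-T 2) to 20 on leaving out 1 library. Of 4 in R against VC-R, it was 0 with the fold rule, 2 with only these groups' libraries, 2 with matched cells, 7 at resolution 0.8, 10 with low-UMI clusters joined, and 0 (without R 3 or VC-R 2) to 10 (without VC-R 1) on leaving out 1 library. The 1 call in VC-T against UC became 2 with total UMIs, 0 with the fold rule, VC-T 1, matched cells, resolution 0.8, low-UMI clusters joined or the latest cluster left out, and 0 to 1 on leaving out 1 library. VC-R against UC had 0 in every alternative run.

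With the replicate number as a block the counts were 17, 3, 19, 2, 1 and 0 in T and R against UC, T against VC-T, R against VC-R, VC-T against UC and VC-R against UC. Same-numbered libraries correlated at -0.255 to 0.201, and 5 to 8 of 22 library and group pairs, over 4 stages, correlated best with their own number. No pairing by number was seen, but the check cannot establish that the libraries are unpaired. The highest value was that of VC-T 2 with T 2. With the group mean removed, the 2 libraries of VC-T mirror each other, so their values carry little information. In UMIs per cell 5 of 10 members kept their highest stage, and 8 at resolution 0.8. Joining low-UMI clusters and leaving out the latest cluster were chosen after seeing the data. Matching left 6 cells per library in leptotene and zygotene spermatocytes of T, too few for a value. Stages with few cells, such as T leptotene and zygotene spermatocytes, limit what differences could be detected.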
